A study of Mus musculus with 12 samples.

Results

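The proteasome subunit genes were taken as every protein-coding gene of the mouse mm9 annotation whose symbol starts with Psma, Psmb, Psmc, Psmd, Psme, Psmf or Psmg. The rule found 50 genes among the 22211 protein-coding genes of chromosomes 1 to 19 and X, and no measured value entered it. By their known roles, 31 encode constitutive subunits of the 20S core or 19S regulator, 3 encode the inducible immunoproteasome subunits Psmb8, Psmb9 and Psmb10, 3 encode assembly chaperones of the 19S base, 4 encode assembly chaperones of the 20S core, and 5 encode activators or an inhibitor of the core. The other 4 genes match the symbol rule but are not counted as subunits of the somatic particle. Psma8 and Psmb11 are known from the testis and thymus forms of the proteasome. Psmc3ip is a meiotic recombination factor and not a subunit, and Psme2b-ps is a pseudogene-like locus that the annotation lists as protein-coding.

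The study mapped 6 histone marks by ChIP-seq, the sequencing of DNA that antibodies to a mark pull down from chromatin, in C2C12, an established mouse myoblast line derived from strain C3H. Myoblasts were harvested near confluence in growth medium with serum, and myotubes about 5 days after serum was withdrawn, when light trypsination had been used to separate them from cells that had not fused. Both cell types were at passages 15 to 18 and the labels give no change of genotype and no drug for either. There was 1 library for each mark in each cell type, 12 in all, so no difference below has a replicate check and no p-value is given. Intervals of counts and of ratios of counts cover counting error only (95%, exact Poisson for a count, exact conditional binomial for a ratio of counts). The interval of a median (95%) was read from the ranked values of the genes and describes spread among genes. Those genes share the same libraries and are not replicates. Reads amplified by PCR without molecular identifiers are not all independent molecules. The cells are a bulk population of 1 line, so fewer cells that carry a mark and less mark per cell cannot be told apart.

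The proteasome degrades proteins tagged with ubiquitin. Its barrel-shaped 20S core holds the proteolytic sites inside rings of beta subunits, rings of alpha subunits gate the entrance, and the 19S regulator binds, unfolds and threads substrates into the core. In cells exposed to interferon, Psmb8, Psmb9 and Psmb10 can take the places of the catalytic subunits Psmb5, Psmb6 and Psmb7, which changes the peptides made for MHC class I presentation. In skeletal muscle the ubiquitin-proteasome system is known for the breakdown of myofibrillar protein during wasting. H3K4me3 and H3K27ac mark active promoters, H3K4me2 and H3K4me1 extend over promoters and enhancers, H3K36me3 covers transcribed gene bodies, and H3K27me3 marks chromatin repressed by Polycomb.

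Promoter DNA of 4 core genes is shown to set the immunoproteasome gene Psmb8 beside constitutive core genes with different motif content. The stretches run 5′ to 3′ on the strand of the gene, end just before the transcription start site (TSS) or the first annotated exon base, and hold no annotated exon. They were read from the mm9 genome. Capitals mark matches, on either strand, to 3 of the motifs searched: TGACNNNGC, the antioxidant response core bound by NFE2L1 and NFE2L2, CCAAT, and the interferon-stimulated response core, which is GAAA, then 2 bases of any kind, then GAAA. The coordinates are chr17:34334416-34334665 (plus strand) for Psmb8, chr14:55236852-55237101 (minus strand) for Psmb5, chr11:70338638-70338868 (plus strand) for Psmb6 and chr11:97564463-97564712 (plus strand) for Psmb3.
Psmb8: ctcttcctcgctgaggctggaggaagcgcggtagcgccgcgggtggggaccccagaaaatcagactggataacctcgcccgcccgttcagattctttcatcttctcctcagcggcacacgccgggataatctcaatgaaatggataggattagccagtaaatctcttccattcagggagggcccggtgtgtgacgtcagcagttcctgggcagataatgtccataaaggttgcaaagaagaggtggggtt
Psmb5: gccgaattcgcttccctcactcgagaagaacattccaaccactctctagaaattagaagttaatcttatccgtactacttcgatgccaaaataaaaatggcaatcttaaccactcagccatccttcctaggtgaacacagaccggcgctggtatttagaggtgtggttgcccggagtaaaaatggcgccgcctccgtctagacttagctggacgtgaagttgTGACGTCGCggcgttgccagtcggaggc
Psmb6: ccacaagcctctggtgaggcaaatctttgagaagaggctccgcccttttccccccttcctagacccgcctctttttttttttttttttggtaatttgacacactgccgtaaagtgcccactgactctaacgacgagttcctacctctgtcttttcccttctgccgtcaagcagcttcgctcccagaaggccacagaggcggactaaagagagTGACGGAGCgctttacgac
Psmb3: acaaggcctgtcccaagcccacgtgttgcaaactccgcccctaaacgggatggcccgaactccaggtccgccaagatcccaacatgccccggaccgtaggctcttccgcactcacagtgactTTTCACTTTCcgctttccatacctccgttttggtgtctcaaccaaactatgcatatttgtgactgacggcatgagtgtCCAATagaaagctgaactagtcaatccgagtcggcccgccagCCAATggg

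The Psmb8 stretch has no capitals, since none of the motifs reported here lay in it. In Psmb5 the capitals are the antioxidant response core at bases -28 to -20 from the TSS, in Psmb6 the same core at -38 to -30, and in Psmb3 the interferon core on the minus strand at -128 to -119 and CCAAT at -50 and -8. Over a window from 250 bases before to 50 bases after the TSS, TGACNNNGC was found in 7 of 31 constitutive promoters (22.6%) and in 12.6% of all 22211 promoters. CCAAT was found in 14 of the 31 (45.2%), against 36.7% of all promoters. The ETS core CCGGAAG was found in 11 of the 31 (35.5%), against 11.4% of all promoters and 21.0% of active promoters, the 10390 that had an H3K4me3 peak in myoblasts and in myotubes. The interferon core was found in 6 of the 50 genes (12%), against 3.79% of all promoters, and these 6 were Psmb3, Psmd4, Psmd7, Psmd9, Psme1 and Psmg4. It was in none of the 3 immunoproteasome promoters within this window. TATAAA was found in 5 of the 50 (10.0%), against 12.9% of all promoters and 5.48% of active promoters. The shares of active promoters with the other motifs were 14.4% for TGACNNNGC, 36.9% for CCAAT and 2.82% for the interferon core. A match says only that the letters are present, and the motifs can overlap one another.

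In GC content the constitutive promoters lay close to all promoters, and in CpG content closer to active promoters. Their median GC content was 55.3% (range 45.0 to 75.0), against 56.3% over all promoters and 63.0% over active promoters. Observed over expected CpG had a median of 0.789 for the constitutive genes, 0.581 over all promoters and 0.821 over active promoters. Psmb8 had a ratio of 0.806 and Psmb9 one of 0.720, both within the constitutive range of 0.464 to 1.13, whereas Psmb10 had a ratio of 0.192. The motif and CpG windows were set on annotated TSSs. At Psmb10 most H3K4me3 lay in the 1 kb downstream of it (in myoblasts 74.7 times the genome mean, against 2.77 times upstream). Whether the window at Psmb10 holds the start site used in these cells was not tested.

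Depth lay between 1858771 reads (H3K27ac, myoblasts) and 7033100 reads (H3K36me3, myoblasts), which put the genome mean at 1.45 to 5.50 reads per 2 kb. The muscle identity of the cells was visible at the promoters of Myod1, Myf5 and Des, which were all above the genome mean for H3K4me3 in both cell types. For 6 myotube genes (Myog, Ckm, Acta1, Myh3, Tnnt3 and Tnni2) the H3K4me3 ratio of myotubes to myoblasts had a median of 20.7 and a lowest value of 6.25 (Myog). H3K4me3 above the genome mean was found at 1 of 5 immune markers (Cd68, 5.53-fold) in myoblasts and at none in myotubes, at 0 of 2 endothelial markers in either, at 0 of 2 epithelial markers in myoblasts and 1 (Cdh1, 4.65-fold) in myotubes, and not at the liver gene Alb. The defining leukocyte gene Ptprc had 1 H3K4me3 read in myoblasts and 0 in myotubes.

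Levels are given as the reads in the 2 kb around the TSS divided by the number that the mean over the mm9 genome predicts, called the fold below. For genes with several TSSs, the one with the most H3K4me3 reads was used, as for all other genes. A promoter counts as above the genome mean when the lower bound of its interval exceeds that mean.

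Proteasome promoters carried high H3K4me3, H3K4me2 and H3K27ac in both cell types, and little H3K27me3. The median H3K4me3 level of the 50 genes was 41.7-fold in myoblasts and 40.1-fold in myotubes, where all protein-coding genes had medians of 4.61 and 4.65. Active promoters had medians of 33.7-fold and 28.3-fold, so the genes stood somewhat above them. H3K4me3 was above the genome mean at 47 of 50 genes in myoblasts and 47 in myotubes, against 54.1% and 53.8% of all protein-coding promoters. The deposited H3K4me3 peaks lay within 1 kb of the TSS of 45 genes in myoblasts and 46 in myotubes, against 48.7% and 48.8% of all promoters.

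For H3K27ac the median was 26.1-fold in myoblasts and 17.1-fold in myotubes, with 45 and 47 of the 50 genes above the genome mean (background 51.3% and 50.2%). For H3K4me2 it was 24.3-fold and 21.0-fold, with 48 and 47 genes above the mean (background 61.5% and 58.7%). Active promoters had medians of 25.5-fold and 13.8-fold for H3K27ac, and of 34-fold and 21.5-fold for H3K4me2, so the genes lay below the other active promoters for H3K4me2 in myoblasts and close to them in myotubes. H3K4me1 was lower, with medians of 2.37-fold and 3.26-fold and 32 and 33 genes above the mean (background 48.4% and 47.0%). H3K36me3, which sits mostly further downstream, had promoter medians of 1.64-fold and 1.19-fold, with 16 and 8 genes above the mean (background 13.2% and 11.1%), and its highest values at Psmb3 and Psmc3ip (3.64-fold each in myoblasts, 3.56-fold at Psmc3ip in myotubes).

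H3K27me3 had medians of 0.729-fold in myoblasts and 0.510-fold in myotubes. Only 5 of the 50 promoters in myoblasts (background 18.2%) and 1 in myotubes (background 12.6%) were above the genome mean. The 5 in myoblasts were Psmb8 (7.11-fold), Psmb9 (3.28), the 19S chaperone Psmd10 (2.19), Psmb11 (2.00) and the 20S chaperone Psmg3 (2.00). The 1 in myotubes was Psmb9 (4.34-fold). None of the 31 constitutive promoters was above the mean in either cell type.

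**Figure D1:**
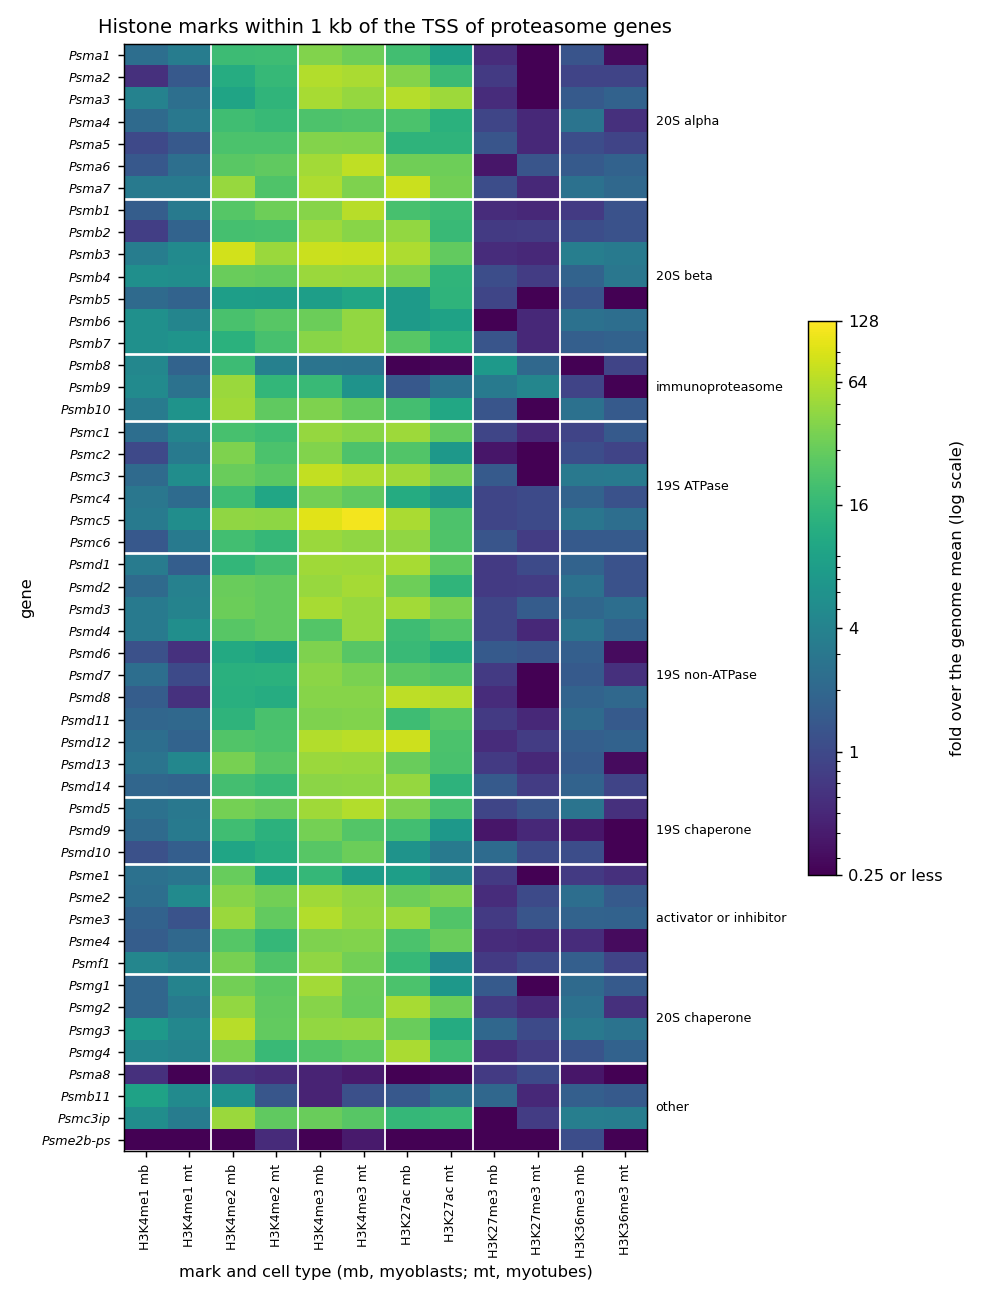
Fold over the genome mean within 1 kb of the TSS, on a log colour scale, for the 50 proteasome genes (rows, grouped by role) and the 6 marks in myoblasts (mb) and myotubes (mt). The constitutive rows are bright for H3K4me3, H3K4me2 and H3K27ac and dark for H3K27me3, whereas Psmb8 and Psmb9 are dark for H3K27ac, and Psma8 and Psme2b-ps are dark throughout.

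All 31 constitutive promoters were above the genome mean for H3K4me3, H3K4me2 and H3K27ac in both cell types. The 7 alpha subunits had H3K4me3 levels from 22.6-fold (Psma4) to 62.3-fold (Psma2) in myoblasts and from 23.3-fold (Psma4) to 69.8-fold (Psma6) in myotubes. The 6 ATPases of the 19S base, the motor that unfolds substrates, ranged from 33.7-fold (Psmc4) to 97.8-fold (Psmc5) in myoblasts. Psmc5 had the highest H3K4me3 of all 50 genes in both cell types, with 212 reads in myoblasts (97.8-fold, interval 85.1 to 112) and 295 in myotubes (114-fold, 102 to 128). Its TSS lies 75 bases from that of Ftsj3 on the other strand, so its window holds both promoters.

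The 11 other 19S subunits, which form the lid and the scaffold and ubiquitin receptors of the base, ranged from 24.0-fold (Psmd4) to 62.3-fold (Psmd12) in myoblasts and from 25.2-fold (Psmd6) to 67.1-fold (Psmd12) in myotubes. The lid subunits Psmd12 and Psmd8 had the highest H3K27ac, Psmd12 in myoblasts with 115 reads (79.1-fold) and Psmd8 in myotubes with 236 reads (63.9-fold). The highest H3K4me2 in both cell types was at Psmb3, a structural beta subunit, with 281 reads in myoblasts (83.7-fold) and 187 in myotubes (50.3-fold). The lowest constitutive promoter for H3K4me3 and H3K4me2 was Psmb5, which encodes the chymotrypsin-like catalytic subunit.

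Psmb5 had 18 H3K4me3 reads in myoblasts (8.30-fold, 4.92 to 13.1) and 26 in myotubes (10.1-fold, 6.59 to 14.8). These intervals lay wholly below the constitutive medians of 48.0-fold and 46.2-fold, and the peak lists had no H3K4me3 peak within 1 kb of it in myoblasts, although they had 1 in myotubes. Its H3K27ac was 11 reads in myoblasts (7.57-fold) and 53 in myotubes (14.3-fold), among the lowest constitutive levels in the first and nearer the constitutive median of 21.1-fold in the second.

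The marks were placed asymmetrically around constitutive TSSs. In myoblasts the median H3K4me3 level was 15.7-fold in the 1 kb upstream and 72.9-fold in the 1 kb downstream, and active promoters had 19.4-fold and 42.4-fold. In myotubes the constitutive medians were 17.8-fold upstream and 73.7-fold downstream. H3K27ac had the same order in myoblasts, 13.8-fold upstream and 49.5-fold downstream. Another protein-coding TSS lay within 1 kb at 10 of the 50 genes (background 11.7%): Psma2, Psma4, Psma7, Psmb9, Psmc2, Psmc5, Psmd10, Psmd13, Psme2 and Psmg2. Reads in those windows cannot be assigned to 1 of the genes.

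The immunoproteasome genes differed from the constitutive genes and from one another. Pooled over the 3 promoters, H3K4me3 was 0.410 times the constitutive level in myoblasts (interval 0.340 to 0.489) and 0.272 times in myotubes (0.220 to 0.332). H3K27ac was 0.189 times (0.128 to 0.269) and 0.202 times (0.149 to 0.267). H3K27me3 was higher, at 4.66 times the constitutive level in myoblasts (3.41 to 6.30) and 3.63 times in myotubes (2.23 to 5.74). H3K4me2 was 1.63 times the constitutive level in myoblasts (1.46 to 1.81) and 0.708 times in myotubes (0.605 to 0.826), but against the local level within 200 kb the myoblast ratio was 1.0. H3K4me1 was 1.68 times (1.27 to 2.19) and 1.14 times (0.836 to 1.51), and in myoblasts 0.942 times with only the 3 partners as the reference. With the 3 partner genes alone in place of the 31, the H3K4me3 ratios were 0.718 and 0.375 and the H3K27ac ratios 0.525 and 0.365. Over the gene bodies, from 1 kb after the TSS to the annotated end, the order was the other way for H3K4me3, at 3.05 times the constitutive level in myoblasts (2.22 to 4.10) and 2.64 times in myotubes (2.02 to 3.39), and for H3K27ac in myoblasts, at 2.10 times (1.25 to 3.30). Most of those reads lay in Psmb10, whose body is 1665 bases long, with 38 and 57 of the H3K4me3 reads, whereas Psmb8 had 3 and 3 and Psmb9 had 5 and 3.

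Psmb8 (chr17:34334666-34338399, plus strand) encodes the inducible chymotrypsin-like subunit that replaces Psmb5. It had 6 H3K4me3 reads in myoblasts (2.77-fold, 1.02 to 6.02) and 7 in myotubes (2.72-fold, 1.09 to 5.59), below all 31 constitutive promoters in both, and no H3K4me3 peak lay within 1 kb. Against Psmb5, the lowest of them, the ratio was 0.333 in myoblasts (0.108 to 0.877) and 0.269 in myotubes (0.0987 to 0.637). For H3K27ac it had 0 reads in myoblasts and 1 read in myotubes (0.271-fold). Read as allowing up to 3 reads, the count of 0 gives a limit of 2.06-fold, which is tighter than the exact interval used for other counts. H3K27me3 had 39 reads in myoblasts (7.11-fold, 5.05 to 9.72) and 8 in myotubes (2.04-fold, 0.881 to 4.02), above all 31 constitutive promoters in both. H3K4me2 was nevertheless present, with 61 reads in myoblasts (18.2-fold, near the constitutive median of 20.6) and 14 in myotubes (3.76-fold), where it was below every constitutive promoter.

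Psmb9 (chr17:34318932-34324709, minus strand) encodes the subunit that replaces Psmb6. The TSS used lies 334 bases from that of Tap1, the peptide transporter gene on the other strand, so the same reads count for both. Psmb9 had 37 H3K4me3 reads in myoblasts (17.1-fold, 12 to 23.5) and 16 in myotubes (6.21-fold, 3.55 to 10.1), and lay below all but 1 constitutive promoter (Psmb5) in myoblasts and below all in myotubes. H3K27ac had 2 reads in myoblasts (1.38-fold, 0.167 to 4.97) and 10 in myotubes (2.71-fold, 1.30 to 4.98), below every constitutive promoter. H3K27me3 had 18 and 17 reads (3.28-fold and 4.34-fold). H3K4me2 had 167 reads in myoblasts (49.8-fold), above 30 of 31 constitutive promoters, and 58 in myotubes (15.6-fold), above 6. The furthest upstream TSS of Psmb9, 545 bases away, gave 33 and 14 H3K4me3 reads, 171 and 61 H3K4me2 reads and 3 and 11 H3K27ac reads.

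Psmb10 (chr8:108459628-108462292, minus strand) encodes the subunit that replaces Psmb7, and its H3K4me3 and H3K27ac lay within the constitutive range. It had 84 H3K4me3 reads in myoblasts (38.7-fold, 30.9 to 48.0) and 76 in myotubes (29.5-fold, 23.2 to 36.9), which is 0.923 times Psmb7 in myoblasts (0.678 to 1.26) and 0.639 times in myotubes (0.472 to 0.859). H3K27ac had 29 and 39 reads, and the intervals of the ratio to Psmb7 included 1 in both cell types (0.465 to 1.31 and 0.50 to 1.21). H3K27me3 had 7 reads and 1 read (1.28-fold and 0.255-fold). Its H3K4me2 was high, at 175 reads in myoblasts (52.1-fold) and 104 in myotubes (28.0-fold), or 3.89 times Psmb7 in myoblasts (2.79 to 5.52). Most of the signal at Psmb10 lay downstream of the annotated TSS. In myoblasts the 1 kb upstream and the 1 kb downstream had 2.77-fold and 74.7-fold for H3K4me3. The constitutive medians there were 15.7-fold and 72.9-fold. For H3K27ac the Psmb10 levels were 1.38-fold and 38.5-fold, and for H3K4me2 6.55-fold and 97.7-fold.

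**Figure D2:**
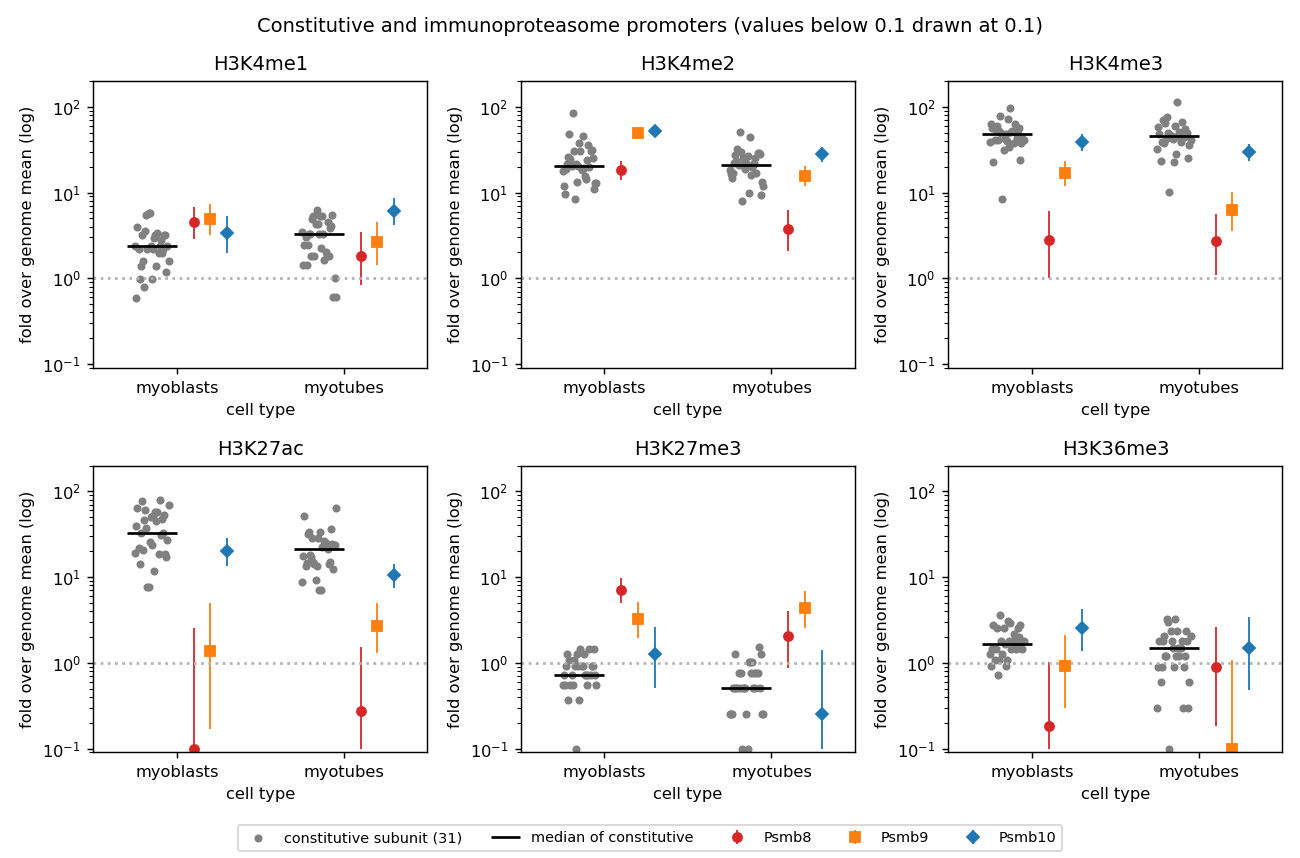
Fold over the genome mean within 1 kb of the TSS (log axis, values below 0.1 drawn at 0.1) for the 31 constitutive subunits (grey points, black line at their median) and for Psmb8, Psmb9 and Psmb10 with counting intervals. Psmb8 and Psmb9 sit below every grey point for H3K27ac and above every one for H3K27me3 in both cell types, and Psmb10 sits among the grey points for H3K4me3 and H3K27ac.

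Psmb9, Tap1 and Psmb8 lie side by side in the MHC class II region of chromosome 17. Over the 19468 bases from Psmb9 to Psmb8 (chr17:34318932-34338399), H3K27me3 had 237 reads in myoblasts (4.44-fold, 3.89 to 5.04) and 128 in myotubes (3.35-fold, 2.80 to 3.99), so most of these reads lay outside the 2 TSS windows. H3K27ac over the same stretch was 0.495-fold (0.199 to 1.02) and 0.918-fold (0.632 to 1.29), and H3K36me3 was 0.467-fold and 0.518-fold. H3K4me2 was 7.93-fold in myoblasts and 2.54-fold in myotubes, and was gathered in peaks at the Psmb9 and Tap1 start sites and at Psmb8. Tap2, the partner of Tap1, had H3K4me3 levels of 8.76-fold and 5.82-fold and an H3K27me3 level of 0.365-fold in myoblasts, so H3K27me3 did not cover its TSS there.

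**Figure D3:**
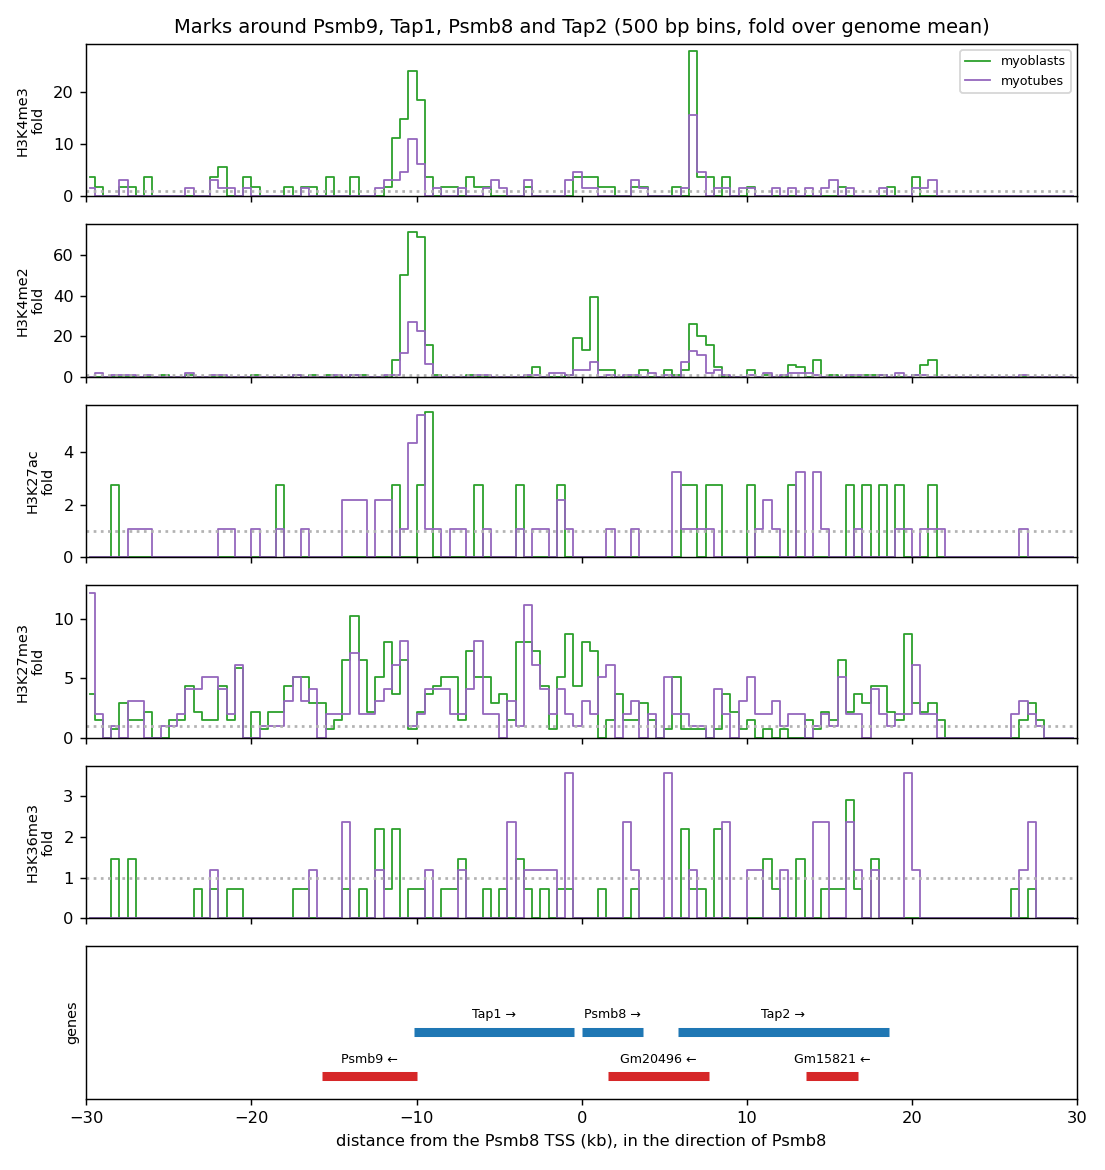
Fold over the genome mean in 500 bp bins for 5 marks in myoblasts (green) and myotubes (purple), against distance from the Psmb8 TSS in kb, with the genes below (blue, plus strand; red, minus strand). H3K4me2 forms narrow peaks at Psmb9 and Tap1, Psmb8 and Tap2 that are taller in myoblasts, while H3K27me3 is broad from Psmb9 to Psmb8.

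Of 17 genes of the interferon and antigen presentation list, 15 had H3K4me3 above the genome mean in myoblasts and 14 in myotubes, beside the 54.1% and 53.8% of all promoters. Irf1, a transcription factor of the interferon response, was at 49.3-fold and 24.8-fold, and B2m, the light chain of MHC class I, at 32.7-fold and 26.0-fold. The class I heavy chain genes were low, with H2-K1 at 4.15-fold and 1.55-fold and H2-D1 at 3.23-fold and 3.49-fold, and these 2 values are uncertain, because class I genes are near-identical copies and only uniquely aligned reads were kept in the myoblast libraries (the rule for the myotube libraries is not given in the sources used here). The levels of this list thus ran from near the genome mean (Irf8, 2.31-fold and 0.388-fold) to those of constitutive subunits, with Psmb8 near its low end.

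The proteasome activators Psme1 and Psme2, which together form the interferon-inducible PA28 cap, lie close together on chromosome 14 and differed. Psme1 had 35 and 21 H3K4me3 reads (16.1-fold and 8.15-fold), 101 and 39 H3K4me2 reads (30.1-fold and 10.5-fold) and 12 and 16 H3K27ac reads (8.26-fold and 4.33-fold), the lowest H3K4me3 and H3K27ac among the 5 activators and inhibitors. Psme2 had 113 and 118 H3K4me3 reads (52.1-fold and 45.8-fold) and 47 and 139 H3K27ac reads (32.3-fold and 37.6-fold). The Psme2 TSS lies 595 bases from that of Rnf31 on the other strand. Psme3, the nuclear activator, Psme4, the PA200 activator, and the inhibitor Psmf1 had H3K4me3 within the range set by Psme1 and by Psme3, which was the highest of the 5 at 62.3-fold and 47.7-fold.

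The assembly chaperones had H3K4me3 levels within the range of the constitutive subunits. H3K4me3 was above the mean at all 3 chaperones of the 19S base and all 4 of the 20S core in both cell types, from 24.0-fold (Psmg4) to 53.5-fold (Psmg1) in myoblasts and from 24.4-fold (Psmd9) to 62.1-fold (Psmd5) in myotubes. Psmd10, an oncoprotein that is also known as gankyrin, had the lowest H3K27ac of the 7, at 6.19-fold and 3.25-fold.

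Among the genes not counted as somatic subunits, Psma8, Psmb11 and Psme2b-ps stood apart in H3K4me3, whereas Psmc3ip lay within the constitutive range. Psma8 had 1 H3K4me3 read in each cell type (0.461-fold and 0.388-fold) and 0 H3K27ac reads in myoblasts and 1 in myotubes. Psme2b-ps had 0 and 1 H3K4me3 reads and 0 H3K27ac reads in both. Psmb11 had 1 and 3 H3K4me3 reads (0.461-fold and 1.16-fold), yet it held the highest H3K4me1 of all 50 genes in myoblasts, 46 reads (9.08-fold, 6.65 to 12.1), and 24 in myotubes (4.89-fold, 3.14 to 7.28), where Psmb7 was highest with 31 reads (6.32-fold). Psmb11 lies 7296 bases from the Psmb5 TSS, divergently on chromosome 14. Psmc3ip was marked as an active gene, with 67 and 65 H3K4me3 reads (30.9-fold and 25.2-fold). H3K4me3 was not above the genome mean at Psma8, Psmb11 and Psme2b-ps in either cell type, and these were the only 3 of the 50.

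The comparison of myotubes with myoblasts asks which of these promoters gained or lost marks with differentiation. Each ratio was taken with 1 read added, scaled by library size and centred on the median of the 10390 active promoters, because that median was itself 0.623 for H3K4me2, 0.556 for H3K27ac, 0.865 for H3K4me3 and 1.03 for H3K4me1 (log2 shifts of -0.68, -0.85, -0.21 and 0.05). A gene was called higher or lower past 1.5-fold where the 2 libraries held 20 reads or more between them. Such calls between 2 single libraries compare those libraries.

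The constitutive subunits had their highest median ratio for H3K4me2. The median centred ratio was 1.55 (interval of the median over the 31 genes, 1.43 to 1.64), and 17 of 31 were called higher and 0 lower. Over all promoters 17.6% of those with enough reads were higher and 23.2% lower. In uncentred terms the constitutive genes kept nearly the same share of reads (median ratio by library size, 0.963) while the median active promoter went to 0.623. Among active promoters split by H3K4me2 level into 5 equal bins, the centred median ratio went from 1.31 in the lowest bin to 0.763 in the highest, and 14 of the 31 genes were in the lowest bin. Centred within the same bin, a choice made after the data were seen, the constitutive median was 1.33 (1.18 to 1.57), with 10 of 31 higher and 0 lower.

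The 18 members called higher for H3K4me2 were Psma1, Psma2, Psma3, Psma5, Psma6, Psmb1, Psmb2, Psmb4, Psmb5, Psmb6, Psmb7, Psmc5, Psmd1, Psmd2, Psmd4, Psmd7, Psmd11 and the chaperone Psmd10, among 48 with enough reads. Scaled by total reads only, 2 members were higher and 16 lower, and the median over all 50 was 0.892 in place of 1.43, so these calls say how the genes moved relative to active promoters. The interval of Psmb5 included 1 (0.897 to 2.70). Thus 11 of the 14 core subunits and 6 of the 17 constitutive 19S subunits were called. The median ratios were 1.64 for the alpha and for the constitutive beta subunits, 1.37 for the ATPases and 1.49 for the non-ATPase 19S subunits. All 11 non-ATPase subunits lay above 1, and the lowest constitutive ratio was at the core subunit Psma7 (0.774), so the groups overlapped. The highest ratios were at Psma3, with 32 and 55 reads (2.46, 1.58 to 3.98), and at Psmb7, which encodes the trypsin-like subunit, with 45 and 77 reads (2.46, 1.70 to 3.67). The 4 called lower were Psmb8 (0.351, 0.172 to 0.602), Psmb11 (0.414, 0.106 to 0.995), Psmb9 (0.509, 0.367 to 0.682) and Psme1 (0.568, 0.376 to 0.817). These 4 genes were thus on the other side of 1 from the constitutive median, and Psmb10 lay between at 0.865 (0.669 to 1.10). Interferon-linked genes did not share 1 direction. Psme2, which forms the PA28 cap with Psme1, had a ratio of 1.33. The interferon and antigen presentation list had a median of 0.996, with 4 higher and 2 lower of 15 genes with enough reads.

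At the promoters H3K4me3 differed little between the cell types. The median centred ratio was 1.11 over all 50 genes and 1.12 over the constitutive 31, and of 46 genes with enough reads 4 were called higher (background 11.2%) and 3 lower (background 13.1%). The 4 were Psmd4, the ubiquitin receptor of the 19S regulator, with 52 and 126 reads (2.33, 1.69 to 3.32), Psmb1 with 90 and 169 reads (1.82, 1.41 to 2.38), Psmb6, the caspase-like subunit, with 68 and 119 reads (1.69, 1.25 to 2.33), and Psma6 with 116 and 180 reads (1.5, 1.19 to 1.92). At its furthest upstream TSS, 14553 bases away, Psma6 had 1 and 2 H3K4me3 reads. The 3 called lower were Psmb9 (0.435, 0.218 to 0.775), Psme1 (0.594, 0.323 to 1.03) and the ATPase Psmc2, with 86 and 58 reads (0.659, 0.462 to 0.925). The interval for Psme1 reached 1, so its difference in H3K4me3 was within counting error. Over gene bodies the median centred H3K4me3 ratio was 1.08 over 49 genes (interval of the median 0.982 to 1.25). Over the constitutive 31 it was 1.23 (1.03 to 1.48). The body medians over the 49 genes were 1.38 for H3K4me2 (1.03 to 1.89) and 1.44 for H3K4me1 (1.12 to 1.59).

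For H3K27ac the median centred ratio was 0.985, and of 45 genes with enough reads 12 were higher (background 26.5%) and 7 lower (background 24.1%). The 12 were Psma5, Psma6, Psmb1, Psmb5, Psmb6, Psmd4, Psmd7, Psmd8, Psmd11, Psme2, Psme4 and Psmc3ip, and the highest ratio was at Psmb5, with 11 and 53 reads (3.19, 1.76 to 7.24). The 7 were Psmc2, Psmd9, Psmd12, Psmd14, Psmf1, Psmg1 and Psmg4, and the lowest ratio was at Psmd12, with 115 and 81 reads (0.50, 0.370 to 0.668). Psmd14 encodes the deubiquitinase of the lid and had 69 and 52 reads (0.536, 0.365 to 0.776). The intervals of Psmd9 and Psmf1 included 1. Scaled by total reads only, the median was 0.547, with 1 gene higher and 29 lower. Both shares were near or under the background, so the counts are no result about these genes. Psma6, Psmb1, Psmb6 and Psmd4 were the genes called higher for H3K4me3 and H3K27ac alike, and all 4 were also called higher for H3K4me2. The share of all promoters called for these marks together is not given here, so this overlap is no result about the 4 genes.

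For H3K4me1, 13 of 37 genes with enough reads were higher (background 17.7%) and 7 lower (background 35.3%), on counts of 46 reads or fewer. The 13 included 5 of the 6 ATPases, Psmc1, Psmc2, Psmc3, Psmc5 and Psmc6, with ratios from 1.59 (Psmc5) to 2.83 (Psmc2, 5 and 16 reads, 1.12 to 11.2). The others were Psmb1, Psmb10, Psmd2, Psmd4, Psmd13, Psme2, Psmg1 and Psmg2. Of the 13, only Psmc2 and Psmc3 had intervals above 1. The calls were 2 higher and 3 lower within 500 bp of the TSS, 2 and 4 in the 1 kb downstream, and 0 and 0 with every library thinned to the smallest. The 7 lower were Psma3, Psmb8, Psmb9, Psmb11, Psmc3ip, Psmd1 and Psmg3, and the lowest was Psmb8, with 23 and 9 reads (0.417, 0.159 to 0.878). For H3K27me3 at the promoter, Psmb8 went from 39 to 8 reads (0.375, 0.138 to 0.742) and Psmb9 from 18 to 17 (1.58, 0.762 to 3.24), an interval that includes 1. Over the gene body the order of the 2 genes was the other way, with 13 and 16 reads in Psmb8 (1.20, 0.549 to 2.75) and 59 and 24 in Psmb9 (0.412, 0.239 to 0.656).

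**Figure D4:**
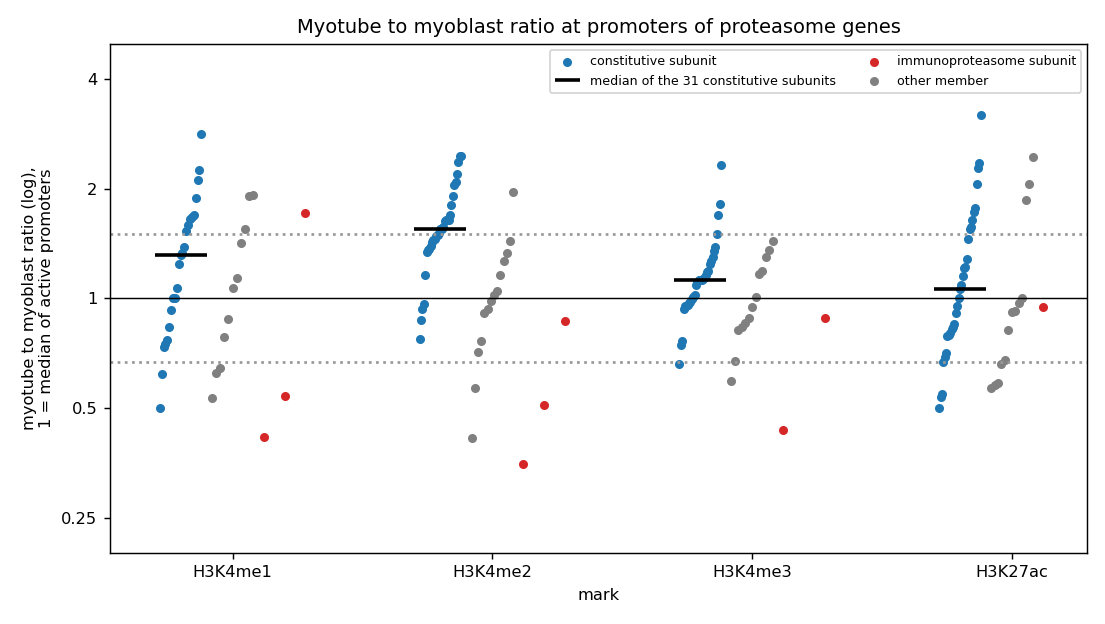
Centred myotube to myoblast ratio (log axis, 1 is the median of active promoters, dotted lines at 1.5-fold) at the promoters with at least 20 reads, for constitutive subunits (blue, black line at the median of the 31), immunoproteasome subunits (red) and other members (grey). The blue points are shifted up for H3K4me2 with a median of 1.55, and for the other 3 marks they spread around or slightly above 1.

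Among 30 partners and regulators of the proteasome, 9 were higher and 2 lower for H3K4me2, beside the 17.6% and 23.2% over all promoters given above. Over their bodies, H3K36me3 was higher for 2 and lower for 11 of 28 (all genes, 19.9% and 17.1%). For promoter H3K4me3, 5 of the 30 were higher and 2 lower (background 11.2% and 13.1%), and the median ratio was 1.06. The ratios of genes with enough reads ran from 0.228 (Fbxo21) to 29.2 (Trim63). The ubiquitin ligase gene Trim63, known for muscle atrophy, had 3 and 119 H3K4me3 reads in myoblasts and myotubes (12.9 to 190). Nfe2l1, which encodes a transcription factor of proteasome genes, had 125 and 216 (1.67, 1.34 to 2.11). The assembly factor gene Pomp had 164 and 129 (0.766, 0.602 to 0.969), which did not pass 1.5-fold.

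H3K36me3 was measured over the gene body, from 1 kb after the TSS to the annotated end, in the 49 genes with at least 500 such bases. Its median was 6.03-fold in myoblasts and 5.35-fold in myotubes, against 4.65-fold and 4.30-fold over active genes and 1.74-fold and 1.82-fold over all genes. Against the 200 kb around the TSS the members' medians were 2.34-fold and 1.86-fold. It was above the genome mean in 44 of 49 genes in each cell type (background 53.8% and 54.1%). All 31 constitutive genes were above it in myoblasts and 30 in myotubes, where Psmb5 had 8 reads (1.48-fold, 0.639 to 2.91).

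The highest level was at Psmb6, over a body of 1473 bases, with 68 reads in myoblasts (16.8-fold, 13 to 21.3) and 49 in myotubes (19.7-fold, 14.6 to 26.1). Psmc3, the ATPase gene next in myoblasts, had 516 reads (16.7-fold), and Psmd3, a lid subunit gene next in myotubes, had 388 (18.5-fold). The lowest was Psma8, with 35 and 12 reads over 55149 bases (0.231-fold and 0.129-fold). Psmb8 had 2 and 3 reads (0.266-fold and 0.651-fold) and Psmb9 had 6 and 3 (0.516-fold and 0.420-fold), all with intervals that did not lie above 1. Psmb10 had 16 and 7 reads (3.50-fold, 2.00 to 5.68, and 2.49-fold, 1.0 to 5.14). Pooled, the immunoproteasome genes had 0.157 times the constitutive H3K36me3 in both cell types (intervals 0.101 to 0.234 and 0.0837 to 0.269).

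Between the cell types, the median centred body ratio was 0.908, with 1 of 46 genes higher (background 19.9%) and 6 lower (background 17.1%). The 1 was Psmg3 (1.65, 0.972 to 2.81). The 6 were Psma1 (0.499, 0.360 to 0.666), Psma2 (0.571, 0.421 to 0.751), Psmc6 (0.607, 0.499 to 0.730), Psmb5 (0.496, 0.180 to 1.02), Psmd10 (0.577, 0.278 to 1.03) and Psma8 (0.597, 0.268 to 1.12), and the intervals of the last 3 included 1. By subunit group the medians were 0.734 for the alpha subunits, 0.775 for the constitutive beta subunits, 0.869 for the non-ATPase 19S subunits and 1.19 for the ATPases. The alpha subunit genes had centred ratios from 0.499 to 0.935. Among the ATPases, Psmc1, Psmc2, Psmc4 and Psmc5 lay between 1.10 and 1.46, and the interval of Psmc2 included 1 (0.903 to 1.32). The other ATPases, Psmc3 (0.908, 0.781 to 1.05) and Psmc6 (0.607), lay within the alpha range, so the groups overlapped.

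**Figure D5:**
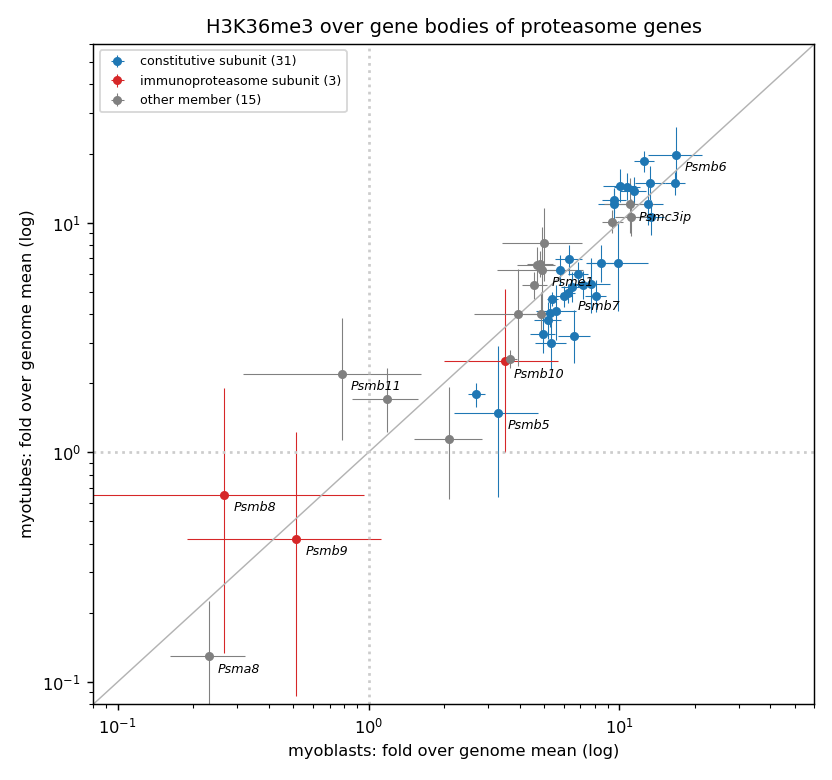
H3K36me3 over gene bodies in myoblasts (horizontal) and myotubes (vertical), fold over the genome mean on log axes, for the 49 proteasome genes with a body, with counting intervals and a line of equal fold. Constitutive genes (blue) lie between 1.48-fold and 19.7-fold, Psmb8 and Psmb9 (red) lie below 1 in both, and Psma8 is lowest.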

How the data were processed

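ChIP-seq for H3K4me1, H3K4me2, H3K4me3, H3K27ac, H3K27me3 and H3K36me3 was analysed in C2C12 myoblasts and myotubes, with 1 library per mark and cell type and no input library used here. The authors deposited aligned reads on mm9, 1 line per read, each a count of 1. For the myoblast libraries the study's methods name Mosaik with default parameters and keep uniquely aligned reads. For the myotube libraries the aligner is not given in the sources used here. Library fragments were about 250 bp with adaptors after 15 PCR cycles. The authors also deposited MACS peaks with a score per peak, and the H3K4me3 peaks served only to say whether a peak lay within 1000 bp of a TSS.

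Reads, extended to 150 bp, were counted within 1000 bp of the TSS and over the gene body from 1000 bp after it (at least 500 bp), and divided by the count that the library's mean over 2555806925 bases without N predicts. Depth was 1858771 to 7033100 reads, and 0.417% to 3.14% of reads shared a position with another. A count of 0 was read as allowing up to 3 reads. Myotube to myoblast ratios had 1 read added and were centred on active promoters, or on the bodies of the same genes. Calls needed 1.5-fold and 20 reads in both libraries together, and were made for 4 promoter marks and body H3K36me3, since at promoters only 2 genes for H3K27me3 and 9 for H3K36me3 had that many reads. Fitted models across genes were not used, because no group had replicates. Scripts ran in Python 3.11.15 with numpy 2.4.6, scipy 1.17.1, pandas 2.3.3 and matplotlib 3.10.9, and the interval and call functions were tested on simulated data.

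The genes and lists were chosen with earlier results of these data known. Named were Psmb8, Psmb9, Psmb10 and their partners, genes of the stem that are not somatic subunits, Psme1 and Psme2, the highest and lowest gene per mark, every gene without H3K4me3 above the mean, and every gene past 1.5-fold. Others named for their group range were chosen after their values were seen. The partners and regulators list had 30 genes, and 17 of the interferon and antigen presentation list were found by symbol. Alternatives for the window, TSS, background, read use, scaling and thresholds are given in the closing section. 1 gene of that list and 1 of the motifs searched are not reported here.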

Additional observations from a re-analysis of the deposited data

How the results depend on the processing

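Values were recomputed under each alternative. The medians, pooled ratios and counts recomputed kept their direction, and moved by less than their interval or, for counts, by less than 1.5 times, under these settings: 53 values each with counting of 5′ ends alone, of 250 bp fragments, of duplicate positions once, and at the furthest upstream TSS, 41 without Psmc3ip, Psma8 and Psmb11, 17 with 5 reads added, 12 with H3K4me3 peaks scored at least 100, and 5 over the whole annotated gene. Single genes did move: at the furthest upstream TSS Psma6 had 1 and 2 H3K4me3 reads and Psmf1 2 and 3. No paired analysis was possible because there was 1 library per mark and cell type, and for the same reason no replicate could be left out. Where a value below moved, the cause was not tested.

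With reads counted only in the 1 kb downstream, medians for H3K4me3 were 61.8-fold and 53.5-fold and for H3K36me3 in myoblasts 2.00-fold, immunoproteasome to constitutive H3K4me2 was 2.03 in myoblasts and 0.833 in myotubes, 3 promoters were above the mean for H3K27me3 in myoblasts, and H3K4me1 calls were 2 higher and 4 lower. Within 500 bp either side, medians were 42.0-fold and 27.6-fold for H3K27ac and 2.00-fold for H3K36me3 in myoblasts, and 17 (H3K4me1, myoblasts), 2 (H3K27me3, myoblasts) and 4 (H3K36me3, myotubes) promoters were above the mean. In that window the immunoproteasome to constitutive ratios were 2.31 for H3K4me1, 1.42 for H3K4me2, 0.304 and 0.217 for H3K4me3, 0.0845 and 0.117 for H3K27ac and 0.119 for H3K36me3 in myotubes, and H3K4me1 calls were 2 higher and 3 lower.

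Against the 200 kb around the TSS as background, medians in myoblasts and myotubes were 1.45 and 1.76 for H3K4me1, 9.47 and 9.44 for H3K4me2, 23.1 and 20.8 for H3K4me3, 13.1 and 8.88 for H3K27ac, 0.639 and 0.482 for H3K27me3, 0.660 and 0.419 for H3K36me3, and 2.34 and 1.86 for body H3K36me3. Immunoproteasome to constitutive ratios became 1.0 and 0.545 for H3K4me2, 0.222 and 0.170 for H3K4me3, and 0.0964 and 0.130 for H3K27ac. With only Psmb5, Psmb6 and Psmb7 as the constitutive reference they were 0.942 for H3K4me1 in myoblasts, 2.78 and 0.871 for H3K4me2, 0.718 and 0.375 for H3K4me3, 0.525 and 0.365 for H3K27ac, and 6.50 for H3K27me3 in myotubes.

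When at least 3-fold over the mean was required, 18 promoters passed for H3K4me1 and 2 for H3K27me3 in myoblasts, and 4 and 3 for H3K36me3. With every library thinned to the smallest, 14 (H3K4me1, myoblasts), 2 (H3K27me3, myoblasts), 5 and 3 (H3K36me3) promoters were above the mean, medians in myoblasts were 0.688 for H3K27me3 and 1.38 for H3K36me3, immunoproteasome to constitutive H3K4me1 in myotubes was 0.779, H3K4me1 gave 0 calls higher and 0 lower, and 5 promoters were lower for H3K4me3. With at least 50 reads, H3K4me1 calls were 0 higher and 2 lower.

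Past 2-fold, calls higher and lower were 3 and 1 for H3K4me1, 6 and 2 for H3K4me2, 1 and 1 for H3K4me3 and 6 and 0 for H3K27ac. Scaled by total reads only, the median ratios were 0.892 for H3K4me2, 0.963 for H3K4me3 and 0.547 for H3K27ac, and calls higher and lower were 2 and 16, 2 and 6, and 1 and 29. Centred within bins of similar level, an alternative chosen after seeing the data, 11 genes were higher for H3K4me2. H3K4me1 calls rested on the fewest reads of the 4 promoter marks called.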
